A study of Mus musculus with 4 samples.

Results

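The genes described here encode the enzymes and anchoring proteins of cyclic nucleotide and protein kinase A (PKA) signalling. They were taken by symbol: the adenylyl cyclases (Adcy, without Adcy5), the cyclic nucleotide phosphodiesterases (Pde with a family number from 1 to 9 or 11 and a letter from a to d), the PKA catalytic and regulatory subunits (Prkac and Prkar) and the A kinase anchoring proteins (Akap). The symbol rule also takes Prkaa1 and Prkaa2, the catalytic subunits of AMP-activated kinase (AMPK), which is not a cyclic nucleotide enzyme. Of 32531 gene names in the files, 54 matched, and 47 of these held 10 or more counts in at least 2 libraries. These 47 members are 8 cyclases, 17 phosphodiesterases, 2 PKA catalytic subunits, 4 PKA regulatory subunits, 2 AMPK subunits and 14 anchoring proteins.

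The study compared ribosome-bound RNA with total RNA in the cerebral cortex of adult mice of the Cbln1-EGFP/Rpl10a line NIDA030, which carries the ribosomal protein Rpl10a tagged with EGFP. The sequenced groups both came from mice carrying the transgene: 2 libraries of RNA immunopurified with anti-EGFP antibodies (IP 2 and IP 4) and 2 libraries of total cortical RNA (input 2 and input 4). The method, translating ribosome affinity purification (TRAP), captures ribosomes of the cells in which the tag is made. The labels name Cbln1 as the driver and give neither sex nor strain background, and they do not say whether each library stands for its own mouse. The p-values below therefore reflect variation among 4 libraries that may be technical. Because IP differs from input both in the cells represented and in the RNA being ribosome-bound, the share of a cell type, the amount of RNA per cell and the loading of a transcript with ribosomes cannot be told apart.

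Cyclic AMP is made from ATP by adenylyl cyclases, which stimulatory and inhibitory G proteins switch up and down, and it is broken down, as is cyclic GMP, by phosphodiesterases. PKA is held inactive as a complex of regulatory and catalytic subunits, and cAMP binding to the regulatory subunits releases catalytic activity. Regulatory subunits of type I (RI) are found largely in the cytosol and those of type II (RII) mostly on anchoring proteins, which place the kinase at synapses, organelles or the nucleus. In cortical neurons the pathway serves neuromodulator receptors, synaptic plasticity and, through the transcription factor CREB, activity-dependent transcription.

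CREB and its relatives bind the cyclic AMP response element (CRE), TGACGTCA, a palindrome whose 5-base core, TGACG or on the other strand CGTCA, is also bound. The RefSeq promoter windows were searched on both strands for the CRE and for the core, which lies within every CRE. Each window ran from 250 bases before to 50 bases after an annotated start (GRCm38.p6, several starts for some genes). The search was chosen with the rise of 4 of the 6 PKA subunit genes in IP known. Any link of these sites to that rise was not tested. Stretches of 30 bases that hold them are shown for the PKA subunits, 5′ to 3′ on the gene's strand, with the CRE or core in capitals. Further core matches of Prkar1a are left out. The 2 windows of Prkar2b held neither. A core was in 3 of 6 windows of Prkar1a, 1 of 5 of Prkar1b and 1 of 2 of Prkaca. It was also in 1 of 3 windows of Prkacb and in the 1 window of Prkar2a.
Prkar1a, chr11:109650889-109650918, plus strand, CRE 49 bases before a start: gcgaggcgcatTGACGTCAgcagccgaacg
Prkar1b, chr5:139150033-139150062, minus strand, core 49 bases before a start: tagagggcggagTGACGggcaggaggacga
Prkaca, chr8:83972846-83972875, plus strand, core 120 bases before a start: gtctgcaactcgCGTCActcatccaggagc
Prkaca, chr8:83972948-83972977, plus strand, core 6 bases before the same start: ccaatgggcggtgggctgcgggggCGTCAc
Prkacb, chr3:146813031-146813060, minus strand, core 102 bases before a start: ggggcttgaccgCGTCActtccggcgcgcc
Prkar2a, chr9:108692114-108692143, plus strand, core 4 bases before a start: ggacgcgcacgcccgcggccgcgtgCGTCA
Of the 47 members, 40 had a window. Prkar1a was the 1 member with a full CRE (2.5% of 40, against 549 of 27025 genes with a window, 2.03%). The core was in 16 members (40%) against 23.05% of genes, but members have more annotated starts: by window, 18 of 80 held it (22.5%), close to the 20.81% of all 32851 windows. Among members higher in IP, 7 of 9 held a core in at least 1 window, with 9 of their 32 windows, among those lower in IP 2 of 10 did, with 2 of 11 windows, and among those not called 7 of 21 did, with 7 of 37 windows. By window these shares were 28.1%, 18.2% and 18.9%, against 20.81% of all windows. The members higher in IP have more annotated starts per gene, and windows of the same gene can overlap. The 1 CRE of Prkar1a lay in 2 of its windows. These matches describe letters in the reference and were not tested.

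Gene counts numbered 39750468 to 47567384 per library, and abundance is given as CPM, the usual counts-per-library scale with library sizes normalised by TMM. The limit that a count of 0 allows, 3 counts, was 0.0660 to 0.0790 CPM depending on the library, for counting error only. Cbln1 stood at 99.3 and 68.7 CPM in IP and at 11.9 and 8.55 CPM in input. Of 5 neuronal markers 4 rose, with summed levels of 31387 and 29252 CPM in IP and 13075 and 13512 CPM in input. Most of each sum was Snap25, at 27046 and 25461 CPM in IP and 10530.5 and 10912 CPM in input. Rbfox3 did not pass (log2 fold change 0.17). All 4 glutamatergic markers rose, and of 4 GABAergic markers 1 fell. Of 6 markers of striatal projection neurons 4 fell and none rose (76.4 and 80.9 CPM summed in IP, 121 and 129 CPM in input). None of the striatal markers was at 0 in IP, where Drd1 held 785 and 986 counts. Astrocyte markers summed to 267 and 291 CPM in IP and 286 and 297 CPM in input, oligodendrocyte markers to 1148 and 1181 against 1341 and 1258 CPM, microglial markers to 35.0 and 39.6 against 33.4 and 30.7 CPM, and endothelial markers to 16 and 18.9 against 20.6 and 17.1 CPM. Malat1, a noncoding RNA of the nucleus, stood at 1198 and 2121 CPM in IP and 20314 and 19472 CPM in input.

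All 47 members were tested, and their counts lay near those of all genes. In IP, 9 members rose (19.1%, where 23.4% of all 16600 genes tested rose) and 13 fell (27.7%, where 22.4% of all genes fell), and 25 did not pass (quasi-likelihood test of edgeR, p adjusted over all genes by the Benjamini-Hochberg method, threshold 0.05). Their median log2 fold change was -0.03, against -0.04 over all genes tested. Most members are well expressed: 41 averaged 5 CPM or more over the libraries. Of these 9 rose (22.0%, against 34.3% of all genes at that level) and 13 fell (31.7%, against 20.5%), so 53.7% were called, against 54.8%. The groups did not overlap for 37 members, where 73% of all genes tested had no overlap: 16 members were higher in IP (35.3% of all genes) and 21 lower (37.8%). At 5 CPM or more this held for 33 members, where 78.1% of genes did so: 15 were higher (47.1% of genes) and 18 lower (31% of genes). The members together took 0.770% and 0.761% of all counts in the IP libraries, against 0.756% and 0.781% for input. With library sizes alone in place of TMM, which shifts the median of all genes by -0.26, 6 members rose and 22 fell, where 13% of all genes rose and 35.6% fell.

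**Figure D1:**
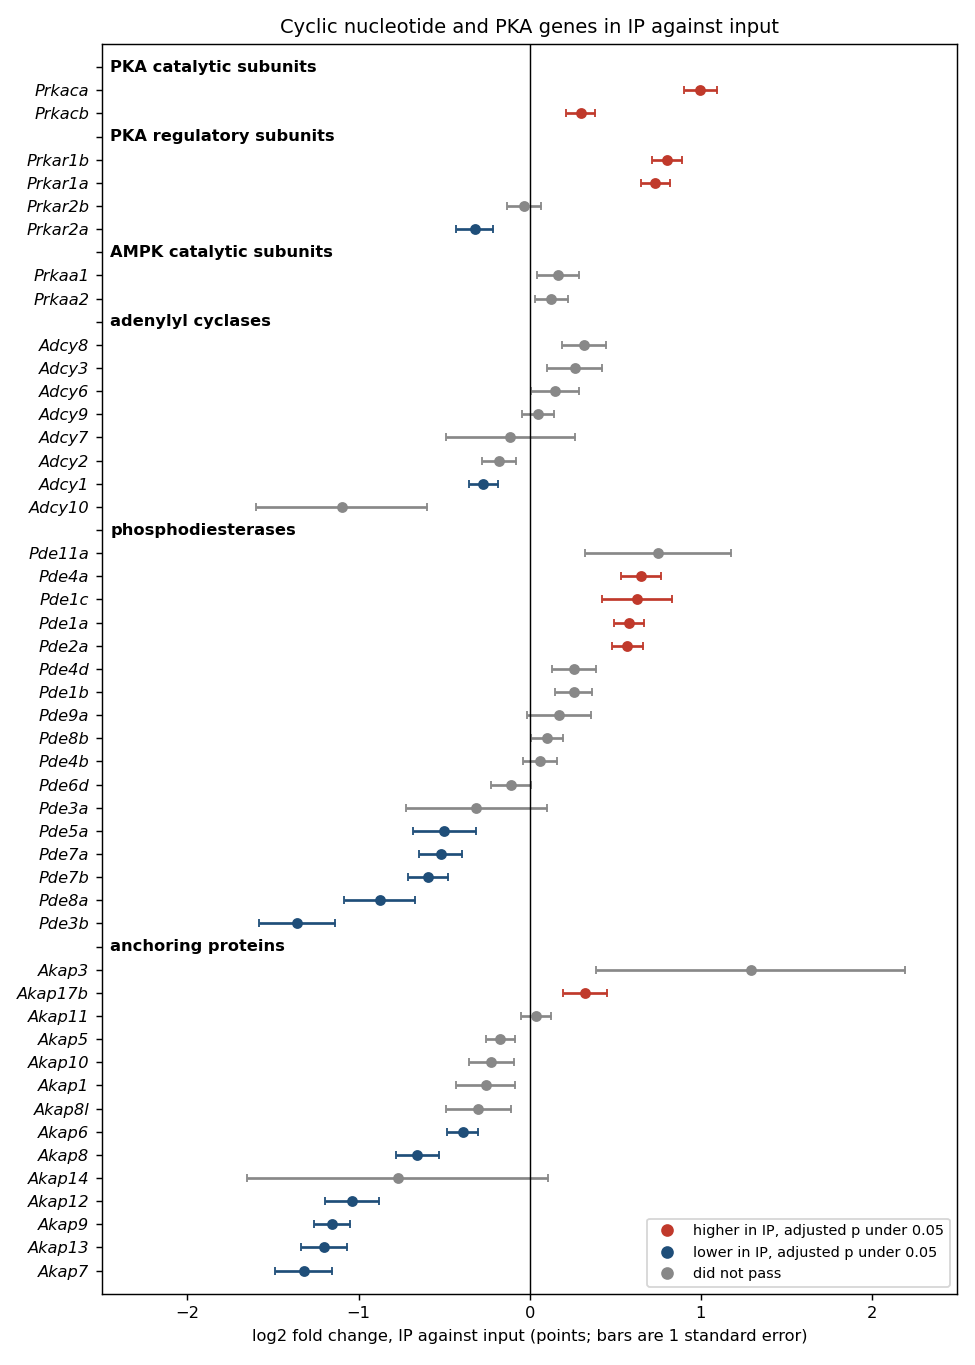
Log2 fold change of IP against input for the 47 members (x axis, points; bars are 1 standard error of the edgeR fit), grouped by role and ordered by value, in red or blue where the adjusted p was under 0.05 and in grey elsewhere. PKA catalytic and RI subunits lie to the right of 0, whereas 6 of 14 anchoring proteins are significantly to the left.

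The families are small, and their counts are to be read beside the 23.4% of all genes tested that rose and the 22.4% that fell. Among genes averaging 5 CPM or more these shares were 34.3% and 20.5%. Both PKA catalytic subunits rose. Of the 4 regulatory subunits 2 rose and 1 fell, of the 17 phosphodiesterases 4 rose and 5 fell, of the 8 cyclases 1 fell and none rose, of the 14 anchoring proteins 1 rose and 6 fell, and neither AMPK subunit passed. The family medians on the log2 scale were 0.65 for catalytic subunits, 0.35 for regulatory subunits, 0.10 for phosphodiesterases, -0.03 for cyclases and -0.35 for anchoring proteins. Differences between families were not tested. The largest rise among the called members was 1.997-fold (Prkaca), so no called member was 2-fold higher, where 3.67% of all genes, and 4.37% of those averaging 5 CPM or more, were. Called and at least 2-fold lower were 5 members, where 10.7% of all genes tested, and 3.62% of those averaging 5 CPM or more, were.

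**Figure D2:**
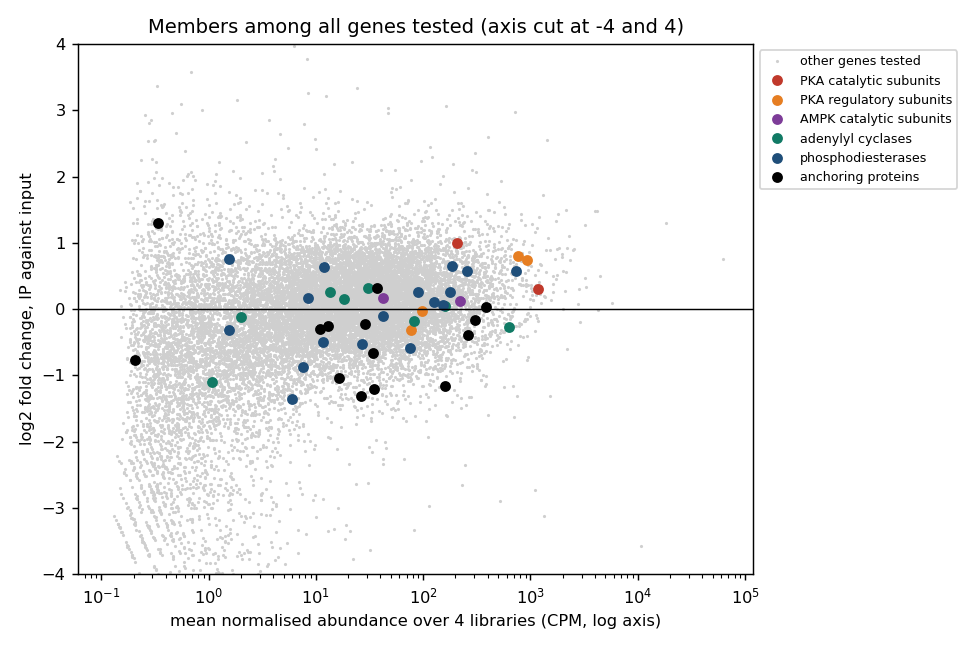
Mean normalised abundance over the 4 libraries (x axis, CPM, log scale) against log2 fold change of IP against input (y axis, drawn from -4 to 4) for all genes tested in grey and the 47 members in colour by role. The members lie within the cloud of other genes, with the PKA catalytic and RI subunits among its abundant genes.

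Among the catalytic subunits, which phosphorylate the targets of the pathway, Prkaca (C alpha) changed most. It stood at 275 and 273 CPM in IP and at 128 and 147 CPM in input. Every IP library thus lay well above every input library, and the difference was 1.997-fold (log2 fold change 0.998, SE 0.10, edgeR adjusted p = 1.33e-07). Prkaca (ENSMUSG00000005469.10, chromosome 8, 83972993 to 83996443 on GRCm38, plus strand) has an annotated pseudogene copy, Prkaca-ps1, and how reads shared with it were counted is not given in the sources used here. Prkacb (C beta), the most abundant member by CPM, stood at 1322 and 1285 CPM in IP and 1009 and 1109.7 CPM in input, a 1.23-fold difference (log2 0.30, SE 0.09, edgeR adjusted p = 0.00746). Its rise was not called without input 2 (0.24, adjusted p = 0.0754) or with library sizes alone (0.04, adjusted p = 0.720 by edgeR).

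The RI subunits rose as well. Prkar1a (RI alpha) stood at 1185 and 1147 CPM in IP and 722 and 679.6 CPM in input, a 1.66-fold difference (log2 0.74, SE 0.08, edgeR adjusted p = 1.14e-06). Prkar1b (RI beta), the form largely restricted to the nervous system, stood at 1035 and 926 CPM in IP and 572 and 552 CPM in input, or 1.74-fold (log2 0.80, SE 0.09, edgeR adjusted p = 6.54e-07). For both genes the groups were far apart compared with the spread within each. With an offset for GC content and exon length the log2 fold change of Prkar1b was 0.53 and that of Prkar1a 0.73, both still called. On GRCm38, Prkar1a lies on chromosome 11 (109649405 to 109669656, plus strand) and Prkar1b on chromosome 5 (139017306 to 139150001, minus strand).

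The RII subunits, which most anchoring proteins bind, did not rise. Prkar2a (RII alpha) stood at 68.5 and 68.3 CPM in IP and 77.6 and 93.3 CPM in input (log2 fold change -0.32, SE 0.11, edgeR adjusted p = 0.0208). The edgeR adjusted p was 0.0521 without IP 2, 0.0522 without IP 4 and 0.351 without input 4 (log2 -0.17), so the call depended on each of these libraries. Prkar2b (RII beta), the main RII form of forebrain neurons, stood at 93.6 and 101 CPM in IP and 103 and 96.6 CPM in input, and its groups overlapped (-0.03, SE 0.10, edgeR adjusted p = 0.816).

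**Figure D3:**
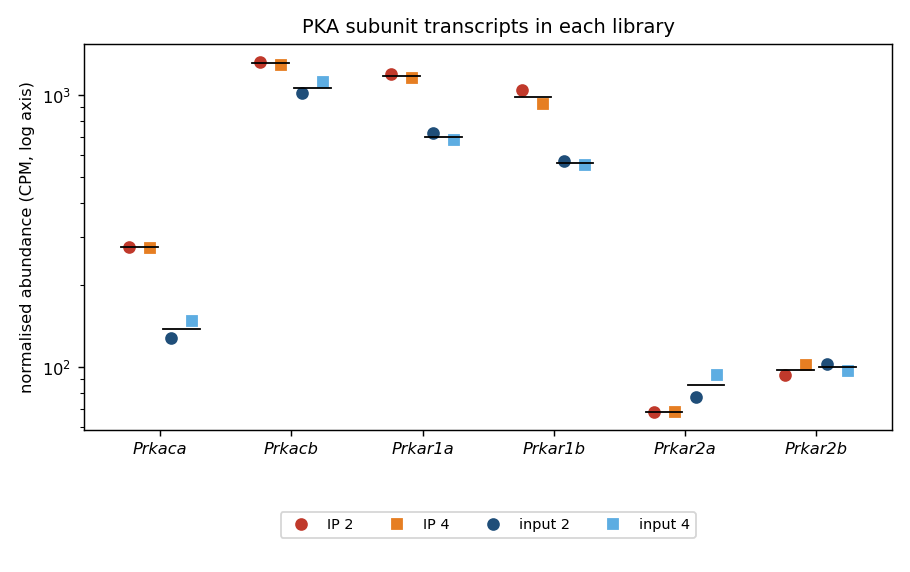
Normalised abundance (y axis, CPM, log scale) of the 6 PKA subunit genes in each of the 4 libraries, with black lines at the group means. The IP libraries lie above the input libraries for Prkaca, Prkacb, Prkar1a and Prkar1b, below them for Prkar2a, and among them for Prkar2b.

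Ratios within a library do not depend on the scaling between libraries, and for these the abundance was divided by exon length (CPM per kilobase of annotated exon). By that measure RI transcripts exceeded RII transcripts 15.01 and 13.2 times in IP and 7.88 and 7.35 times in input. RI made up 93.4% ± 0.550 of regulatory subunit abundance in IP and 88.4% ± 0.498 in input (SD, n = 2 each). Prkaca made up 42.6% ± 0.366 of catalytic subunit abundance in IP and 31.4% ± 0.671 in input (SD, n = 2 each). In all of these the groups did not overlap, which for 2 libraries against 2 gives p = 0.333 (exact permutation test, two-sided), the smallest value this design allows. Regulatory over catalytic abundance was 2.23 and 2.13 in IP and 2.15 and 1.85 in input, and there the groups overlapped.

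**Figure D4:**
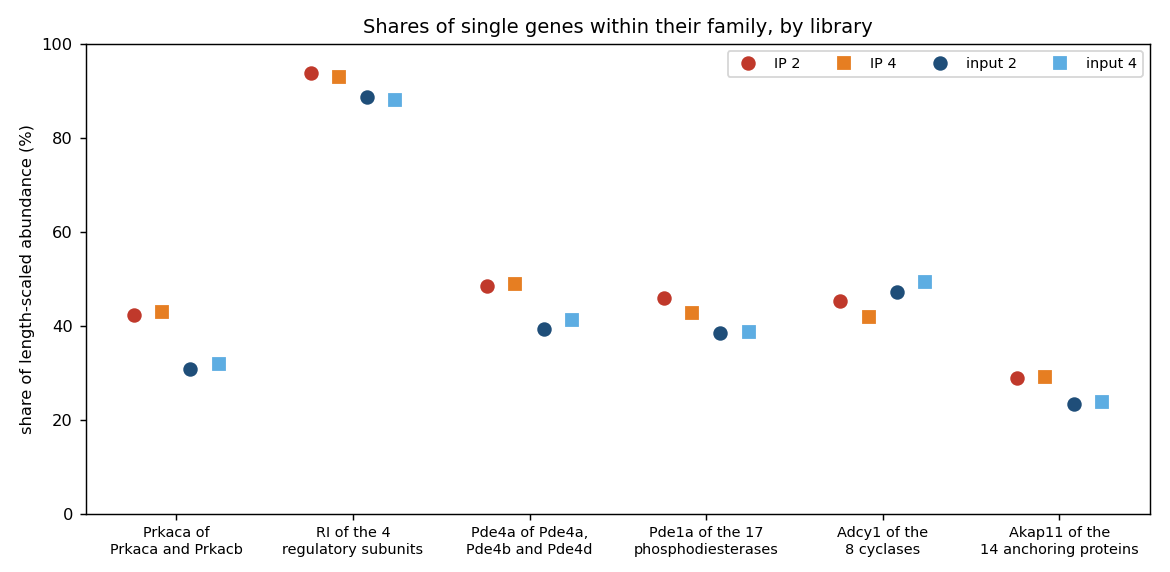
Share of a gene or gene pair in the length-scaled abundance of its family (y axis, %) in each of the 4 libraries. Prkaca, RI, Pde4a, Pde1a and Akap11 took larger shares in both IP libraries than in either input library, and Adcy1 took a smaller one.

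Among the phosphodiesterases, those that rose came from families 1, 2 and 4. Pde1a, a calcium- and calmodulin-stimulated enzyme that hydrolyses cAMP and cGMP, was the most abundant, at 892 and 871 CPM in IP and 568 and 611 CPM in input, or 1.495-fold (log2 0.58, SE 0.09, edgeR adjusted p = 2.07e-05). Pde2a, which cGMP stimulates, stood at 315 and 304 CPM in IP and 205 and 212 CPM in input, or 1.49-fold (log2 0.57, SE 0.09, edgeR adjusted p = 3.88e-05). For both, each IP library lay above each input library. Pde2a shares 3955 of its 6149 exon bases with Gm45837 on the same strand. Ambiguous reads were 1.54% of records in both IP libraries and 5.07% and 5.09% in input. Whether this bears on the rise of Pde2a was not tested. Pde4a, a cAMP-specific enzyme, stood at 197 and 254 CPM in IP and 129 and 158 CPM in input, or 1.57-fold (log2 0.65, SE 0.12, edgeR adjusted p = 0.000195), with IP 4 the highest. With the offset for GC content and length, Pde2a and Pde4a were at 0.32 and 0.37 and still called. Pde1c, at 17.4 and 11.3 CPM in IP and 8.12 and 10.4 CPM in input (log2 0.63, SE 0.20, edgeR adjusted p = 0.0166), was not called without IP 2 (adjusted p = 0.280), without input 2 (0.0885) or with library sizes alone (0.132).

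The relatives of these genes did not all pass. Pde1b was at 0.26 (edgeR adjusted p = 0.0588, or 0.0107 with a replicate block), with both IP libraries above both input libraries. Pde4d stood at 161 and 229.6 CPM in IP and 151 and 175 CPM in input, so the groups overlapped (0.26, edgeR adjusted p = 0.107, or 0.0103 with a replicate block, IP being higher within both same-numbered pairs), and Pde4b was at 0.06 (adjusted p = 0.652). In length-scaled abundance Pde4a made up 48.4% and 48.8% of Pde4a, Pde4b and Pde4d together in IP and 39.2% and 41.2% in input.

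The phosphodiesterases that fell came from families 3, 5, 7 and 8. Pde3b, a cGMP-inhibited enzyme of insulin and leptin signalling, had the lowest fold change of the family, at 3.61 and 3.05 CPM in IP and 8.41 and 8.67 CPM in input (137 and 132 against 382 and 375 counts), or 2.57-fold lower in IP (log2 -1.36, SE 0.22, edgeR adjusted p = 6.24e-05). Pde8a, a cAMP-specific enzyme of high affinity, stood at 5.21 and 5.44 CPM in IP and 11.1 and 8.43 CPM in input (-0.88, SE 0.21, edgeR adjusted p = 0.00189). Pde7b and Pde7a, also cAMP-specific, fell by 0.59 (SE 0.12) and 0.52 (SE 0.13) on the log2 scale, with Pde7b at 52.6 and 67.9 CPM in IP and 90.1 and 91.8 CPM in input. Pde7a stood at 22.0 and 22.1 CPM in IP and 30.5 and 32.7 CPM in input. Pde7b is also abundant in striatal neurons, of whose 6 markers 4 fell and 2 did not pass, and the part of those cells in its fall was not tested. Pde5a, the cGMP-specific enzyme that sildenafil inhibits, stood at 7.92 and 11.2 CPM in IP and 12.9 and 14.3 CPM in input (-0.50, SE 0.19, edgeR adjusted p = 0.0345), and it did not pass when IP 2 (adjusted p = 0.336) or input 4 (0.148) was left out, nor with DESeq2 (0.0564).

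The other phosphodiesterases did not pass. Pde8b, at 131 and 131 CPM in IP and 118 and 126 CPM in input, was at 0.10, and Pde9a, a cGMP-specific enzyme, at 0.17. Pde6d, which despite its name is a chaperone of prenylated proteins, was at -0.11. Pde11a (0.75, SE 0.43) and Pde3a (-0.31, SE 0.41) had 49 to 91 counts per library, and their standard errors were correspondingly wide.

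**Figure D5:**
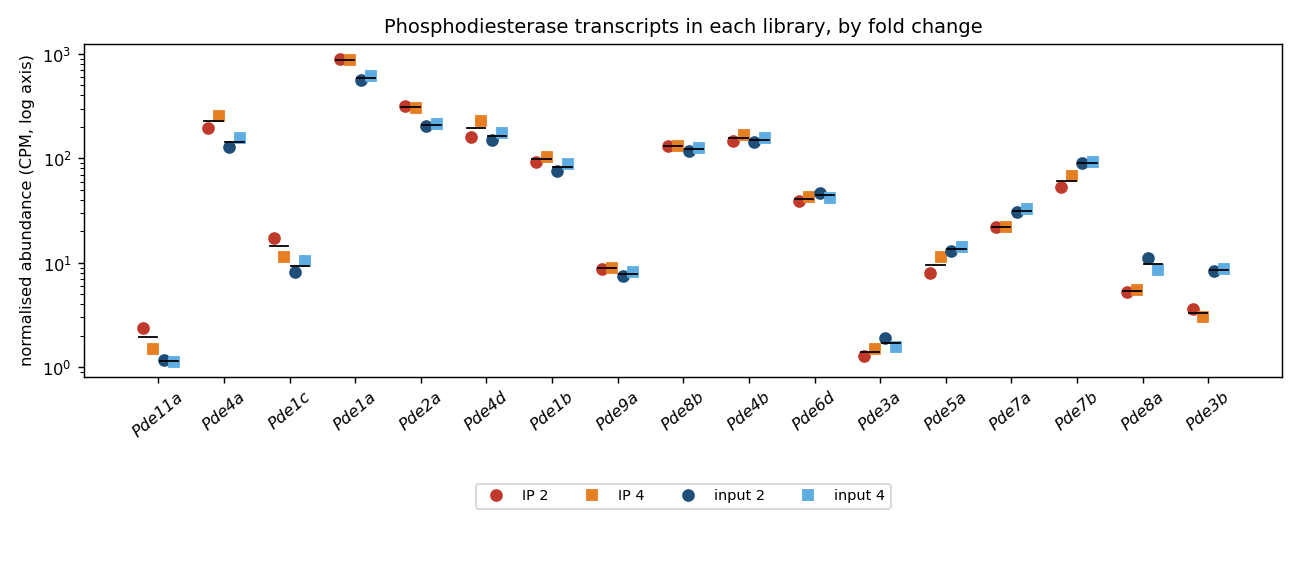
Normalised abundance (y axis, CPM, log scale) of the 17 phosphodiesterase genes in each of the 4 libraries, ordered from the highest to the lowest log2 fold change, with black lines at the group means. The 5 genes at the right end are the ones that fell in IP, and Pde1a is the most abundant of the 17.

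Of the 8 cyclases 1 passed the test. Adcy1, a calcium- and calmodulin-stimulated cyclase of cortex and hippocampus and the most abundant of the family, stood at 599.7 and 542 CPM in IP and 682 and 694 CPM in input, 1.21-fold lower in IP (log2 -0.27, SE 0.09, edgeR adjusted p = 0.0167). Leaving out IP 4 (adjusted p = 0.144) or input 4 (0.0743) ended that call in edgeR. Adcy8, the other calcium-stimulated cyclase, pointed the opposite way at 36.8 and 30.8 CPM in IP and 27.4 and 26.8 CPM in input, short of the threshold (0.32, SE 0.13, edgeR adjusted p = 0.0503, or 0.0164 with a replicate block). In length-scaled abundance Adcy1 made up 45.2% and 41.9% of the 8 cyclases in IP and 47.2% and 49.3% in input. Adcy9, at 159 and 165 CPM in IP and 163 and 150.1 CPM in input, was at 0.05 (SE 0.09), and Adcy2, which G protein beta-gamma subunits stimulate, at -0.18 (SE 0.10). Neither passed, but with the offset for GC content and length both were called lower in edgeR, Adcy9 at -0.24 (adjusted p = 0.0296) and Adcy2 at -0.36 (0.00290). Adcy3 and Adcy6 were at 0.26 and 0.15, and Adcy6 was at -0.11 with library sizes alone. Adcy7 (62 to 113 counts) and Adcy10, the soluble bicarbonate-sensitive cyclase (27 and 28 counts in IP, 59 and 70 in input, -1.10, SE 0.50, edgeR adjusted p = 0.0799), did not pass. Adcy10 was 2.14-fold lower in IP without overlap, and was called with a stricter filter on low counts (adjusted p = 0.0371) and with library sizes alone (0.0306).

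Of the 14 anchoring proteins 6 fell, 4 of them by more than 2-fold. Akap9, a scaffold of the Golgi and centrosome, stood at 91.5 and 106 CPM in IP and 206 and 234 CPM in input, 2.22-fold lower in IP (log2 -1.15, SE 0.10, edgeR adjusted p = 5.79e-08). Akap13, a large multidomain scaffold, stood at 18.5 and 23.5 CPM in IP and 45.8 and 51.1 CPM in input, 2.30-fold lower (-1.20, SE 0.13, edgeR adjusted p = 7.87e-07). Akap7, a small membrane-bound anchor that links PKA to calcium channels, stood at 18.2 and 11.8 CPM in IP and 39.5 and 35.2 CPM in input, 2.495-fold lower (-1.32, SE 0.17, edgeR adjusted p = 3.34e-06). Akap12 (gravin), which anchors PKA at receptors, stood at 12.1 and 9.60 CPM in IP and 22.2 and 22.3 CPM in input, 2.05-fold lower (-1.04, SE 0.16, edgeR adjusted p = 2.74e-05). In these 4 genes no IP library came near an input library. Akap8, a nuclear anchor, fell by 0.66 (SE 0.12), from 44.8 and 39.2 CPM in input to 28.0 and 25.4 CPM in IP, and Akap6, an anchor of the nuclear envelope, fell by 0.39 (SE 0.09), from 290.0 and 306 CPM to 218 and 237 CPM.

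Exon length differed between the members by direction. The offset used below covers GC content and exon length together, so the part of length alone was not tested. Median annotated exon length was 9114 bases in the 13 members that fell, 6012 in the 9 that rose and 5879 in the 25 that did not pass. Over all genes it was 4453 bases in those that rose and 5446.5 in those that fell, so the longer median was not particular to the members. An annotated length was found for 96.8% of the genes that rose but only 75.1% of those that fell, which weakens that comparison. Akap9 and Akap13 have 21350 and 20914 bases of exon, whereas Akap7 and Akap12 have 4375 and 6461. With an offset for GC content and exon length, Akap9 was at -0.96, Akap13 at -1.16, Akap7 at -1.25 and Akap12 at -1.21, all still called. In that fit 9 members rose and 17 fell, where 23.3% of all genes rose and 22.4% fell. The members gained were Adcy2, Adcy9, Akap1 and Akap8l.

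The abundant synaptic anchors did not pass. Akap5, the postsynaptic anchor that brings PKA and calcineurin to glutamate receptors, stood at 286 and 289 CPM in IP and 322 and 325 CPM in input (-0.17, SE 0.09, edgeR adjusted p = 0.121). Akap11, which also binds the kinase GSK3 and was the most abundant anchor by CPM, stood at 384 and 403 CPM in IP and 377 and 389 CPM in input, so its groups overlapped (0.04, SE 0.09, edgeR adjusted p = 0.754, and -0.22 with library sizes alone, adjusted p = 0.0393). The mitochondrial anchors Akap1 and Akap10 were at -0.26 and -0.22, and the nuclear Akap8l at -0.30. With the offset, Akap1 was at -0.47 (edgeR adjusted p = 0.0250) and Akap8l at -0.61 (0.00889). Akap17b was the 1 anchor that rose, at 36.8 and 46.5 CPM in IP and 33.1 and 33.6 CPM in input (0.32, SE 0.13, edgeR adjusted p = 0.0471), and it did not pass without IP 4 (adjusted p = 0.461), without input 2 (0.117), without input 4 (0.0851), with DESeq2 (0.0603), with a stricter filter (0.0909) and with library sizes alone (0.715). Akap3 and Akap14, known from sperm and cilia, held 3 to 33 counts per library, and the highest was Akap3 in IP 2, against 4 in IP 4.

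The AMPK catalytic subunits lay close to even. Prkaa2 stood at 219 and 238 CPM in IP and 198 and 221 CPM in input (0.13, SE 0.09, edgeR adjusted p = 0.291), and -0.13 with library sizes alone, and Prkaa1 was at 0.17 (SE 0.12).

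Names that matched but fell under the count minimum were Adcy4, Akap2, Akap4, Pde4c, Pde6a, Pde6b and Pde6c. Akap14, just inside, held 9 and 3 counts in IP and 12 and 11 in input. Just outside were Adcy4, with 5 and 15 counts in IP and 4 and 0 in input, and Pde4c, with 1 and 0 in IP and 12 and 4 in input. Akap2 (0 counts in 3 libraries and 6 in input 2) shares exons with the annotated gene Pakap, so its reads may not have been assigned to it. Exons of a gene on the opposite strand are annotated at Adcy2, Adcy3, Adcy6, Akap7, Akap9, Akap14, Pde3a, Pde5a, Pde7a, Pde8b and Pde9a. On the same strand, exons of another gene cover 341 of the 3810 exon bases of Prkar1b and 3955 of the 6149 of Pde2a. The values of all these genes are uncertain to that extent.

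Genes around the members were taken from 7 lists, whose counts are descriptions to be read beside the 34.3% of genes that rose and the 20.5% that fell among those averaging 5 CPM or more (median log2 fold change 0.12), or 23.4% and 22.4% among all genes tested. Of 10 genes of the G proteins that control the cyclases, all above 5 CPM, 6 rose and none fell, with a median of 0.42. Gnas, the stimulatory alpha subunit, rose by 0.92 (SE 0.08), Gnb5, a beta subunit, by 0.86 (SE 0.10), and Gnai1, an inhibitory alpha subunit, by 0.63 (SE 0.09). Gnal, the stimulatory alpha subunit of olfactory and striatal neurons, was at 0.02 and its groups overlapped.

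Of 8 PKA inhibitors and phosphoprotein targets, all above 5 CPM, 5 fell and 1 rose (median -0.46). Pkig, the gamma form of the PKA inhibitor peptide, fell by 0.97 (SE 0.16), and Arpp19, a phosphoprotein that inhibits a phosphatase, fell by 0.78 (SE 0.09), whereas Pkib, the beta inhibitor, rose by 0.71 (SE 0.17). Among genes of cAMP-responsive transcription, all above 5 CPM, 1 of 8 rose and 3 fell (median -0.46), with the coactivators Crebbp and Ep300 at -0.76 (SE 0.09) and -0.72 (SE 0.10) and Creb1 itself at -0.57 (SE 0.10).

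Other targets of cAMP and the cGMP branch split. Of 9 other cAMP effectors 3 rose and 1 fell, the exchange factor Rapgef4, by 0.93 (SE 0.09). Of 9 tested genes of the cGMP branch and remaining phosphodiesterases 3 rose and 2 fell: Gucy1b3, the beta subunit of the nitric oxide receptor, rose by 1.03 (SE 0.10) and Nos1, the neuronal nitric oxide synthase, by 0.57 (SE 0.17), whereas Pde10a, abundant in striatal projection neurons, fell by 0.64 (SE 0.10), as did 4 of the 6 striatal markers. Whether striatal cells bear on that value was not tested. Of 12 anchoring proteins without an Akap symbol 6 rose and 3 fell, with Sphkap, an anchor that binds RI, higher by 1.26 (SE 0.11), Synm, an intermediate filament protein, higher by 0.79 (SE 0.14) and Map2, the dendritic microtubule protein, at -1.63 (SE 0.09). Among the remaining AMPK subunits 1 of 4 tested rose, Prkag2, by 0.38 (SE 0.11).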

How the data were processed

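The authors deposited whole-number read counts per gene, 1 file per library, not normalised; the submitters' processing notes name STAR 2.0.0e, HTSeq and mm10. Which annotation, strand setting and library preparation kit applied is not given in the sources used here. Summary lines of the counter stayed out of library sizes and tests, and their shares of records differed by group. Reads in no feature were 7.31% and 7.54% in IP and 14.9% and 13.5% in input. Ambiguous reads were 1.54% and 1.54% in IP and 5.07% and 5.09% in input. Reads without a unique alignment were 37.0% and 38.0% in IP and 32.1% and 30.7% in input. The bearing of these differences on the fold changes was not tested. Per the labels, IP ran on lane 1 and input on lane 2, and a lane effect cannot be told apart from the group. Replicates differed by more than sampling noise (chi-square per degree of freedom 22.5 in IP and 15.2 in input).

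All genes were fitted with edgeR 4.0.16 in R 4.3.3 (TMM, filterByExpr with a minimum count of 10, quasi-likelihood test of IP against input, no block, two-sided, Benjamini-Hochberg over 16600 genes); standard errors were derived from the F statistic. Alternatives were DESeq2 1.42.0, other scalings and filters, a threshold of 1 on the log2 fold change, a replicate block, each library left out and, chosen after seeing the data, an offset for GC content and exon length. Exons and coordinates came from GENCODE vM21 (GRCm38, the assembly also called mm10). Members, lists and rules were chosen with earlier results of these data known. Values of every library were given for up to 4 called members per family and direction averaging 5 CPM or more and for the most abundant member; others were added for context, and up to 3 genes were taken per pathway list, of which 1 is not reported here. The fit was tested on simulated data, but the outcome is not given here, so no error rate is claimed from it. Figures were drawn with matplotlib 3.10.9.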

Additional observations from a re-analysis of the deposited data

How the results depend on the processing

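Of the 22 called members, 16 kept their call and direction under the 11 alternatives other than the fold threshold (6 higher and 10 lower); Adcy1, Akap17b, Pde1c, Pde5a, Prkacb and Prkar2a lost it in at least 1. Tested against a log2 fold change of 1, no member was called higher (0) or lower (0) by edgeR, and over all genes 172 were higher and 675 lower. Scaled by library sizes alone, 2151 genes were higher and 5910 lower, 22 members fell, and the members' median was -0.29. By construction this scaling moves all genes the same way. Of the members 10 changed sign, none of them called with TMM, among them Akap11 (-0.22) and Prkaa2 (-0.13). Under this scaling Akap11 was called lower (edgeR adjusted p = 0.0393). With a stricter filter the median was -0.092 and Akap11 was at -0.023, with fewer genes tested. With the offset for GC content and length the median was -0.14; the cause was not tested. Leaving out 1 library in turn gave a median log2 fold change of the members from -0.080 to 0.040. Replicate numbers are shared between the groups, but the labels do not say that they mark the same animal; deviations of same-numbered libraries correlated at 0.116 across genes. With the replicate block 12 members rose and 13 fell, where 26% of all genes rose and 24.3% fell; Adcy8, Pde1b and Pde4d were gained. Members with few counts have wide errors (SE 0.50 for Adcy10 and 0.43 for Pde11a).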
